A study of Mus musculus with 28 samples.

Results

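*Meg3*, *Rian*, *Mirg*, *Snhg11*, *Malat1*, *Neat1* and *Miat* are 7 long noncoding RNA genes, taken by name from the 29878 genes listed in the count files, and were followed through all 28 RNA-seq libraries of mouse brain beside each library's share of reads that fell on no annotated exon (the no-feature share). The libraries came from male mice 2 to 3 months old that carried both copies, 1 copy or no copy of intact *Hdc* (WT, Het and KO), the gene for histidine decarboxylase, which makes histamine. All mice were backcrossed to C57BL/6, and the labels name no treatment. Dorsal striatum was represented by 2 WT, 3 Het and 2 KO libraries, ventral striatum by 3, 3 and 2, motor cortex by 1, 2 and 2, and hypothalamus by 3, 3 and 2. KO mice lack the enzyme from conception and throughout the body. The labels hold 8 replicate numbers that repeat across regions, each within 1 genotype, and do not say whether a number names a mouse. If it does, the 28 libraries came from 8 mice. The p-values therefore measure the spread between these libraries and may count some mice more than once.

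Each library held 3536802 to 5150280 reads counted on genes. The labelled *Hdc* genotype was not mirrored by a loss of *Hdc* counts: the hypothalamic libraries labelled KO held 54 and 66 counts, against 79, 111 and 94 in WT. Outside hypothalamus the counts followed the order of the labels but were highest in KO. Libraries labelled KO had 29 to 51 counts there, those labelled Het 17 to 33 and WT 0 to 6. The study reports that *Hdc* transcript levels were altered, which it had anticipated. Where the deletion lies within the counted gene is not given in the sources used here, so genotype, and the direction of every genotype difference, means the label below. The dissections matched their labels, since 10 of 10 genes of striatal spiny neurons were higher in dorsal striatum than in motor cortex and 11 of 12 hypothalamic genes were lower in motor cortex than in hypothalamus. Genes of cortical excitatory neurons varied outside motor cortex. Their summed level was 306 to 661 CPM over the hypothalamic libraries (median 336 CPM) and 535 to 978 CPM in dorsal striatum (median 586 CPM), against 2192 to 2315 CPM in motor cortex. They had a median log2 difference of 1.72 between KO and WT in hypothalamus (0 of 10 called, 6 at an unadjusted p under 0.05), and 4 of 10 were called higher in KO than in Het in dorsal striatum. The summed level of choroid plexus genes ran from 89.5 to 3776 CPM over the dorsal striatum libraries (median 170 CPM). There 7 of 8 such genes were called higher in KO than in WT.

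Long noncoding RNAs are transcripts that are often spliced and polyadenylated like messenger RNAs but act without being translated, and the 7 genes here are known from the nucleus. Exons cover 100% of the *Malat1* and *Neat1* genes in the annotation used here. *Malat1* lies in nuclear speckles, bodies rich in splicing factors, and *Neat1* is the RNA scaffold of paraspeckles, which gather RNA-binding proteins such as NONO and SFPQ. *Meg3*, *Rian* and *Mirg* follow each other in the imprinted *Dlk1*-*Dio3* domain and are transcribed from the maternal chromosome, carrying clusters of small nucleolar RNAs and microRNAs in their introns. *Miat*, also called Gomafu, is a neuronal nuclear RNA with a repeated motif that binds splicing factor SF1, and *Snhg11* is a host gene of small nucleolar RNAs. Where in the cell the RNAs lay was not measured here.

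The coordinates are those of GRCm38. *Meg3* (ENSMUSG00000021268) lies at chr12:109541001-109571726, *Rian* (ENSMUSG00000097451) at chr12:109603940-109661716 and *Mirg* (ENSMUSG00000097391) at chr12:109729764-109749460, all on the plus strand. *Malat1* (ENSMUSG00000092341) at chr19:5795690-5802672 and *Neat1* (ENSMUSG00000092274) at chr19:5824708-5845478 are minus-strand neighbours. *Miat* (ENSMUSG00000097767) lies at chr5:112213228-112229395 on the minus strand. *Snhg11* (ENSMUSG00000044349) lies at chr2:158375638-158386145 on the plus strand, and GENCODE M21 types it as protein coding.

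The *Miat* transcript is recognised by the hexamer ACTAAC, shown in capitals in the 2 stretches of its last exon where it is densest. The sequences are read in the sense of the RNA from GENCODE M21 transcript Miat-205, exon 7 of 7, on the minus strand of GRCm38, at chr5:112217307-112217461 and chr5:112216750-112216879.
Miat, first stretch: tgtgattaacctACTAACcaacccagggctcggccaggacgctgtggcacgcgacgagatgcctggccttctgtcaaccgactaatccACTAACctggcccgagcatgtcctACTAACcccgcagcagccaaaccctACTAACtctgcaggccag
Miat, second stretch: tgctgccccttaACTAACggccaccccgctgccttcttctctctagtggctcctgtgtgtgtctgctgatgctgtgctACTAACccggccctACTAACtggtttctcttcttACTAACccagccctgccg
The hexamer occurs 11 times in the 9163 bases of the longest *Miat* transcript. It occurs 4 times in *Neat1*, once each in *Meg3*, *Mirg* and *Snhg11*, and not at all in the longest transcripts of *Malat1* and *Rian*. Among 937 annotated transcripts of 8000 to 10000 bases the median count was 1, and 3 transcripts (0.32%), 2 of them of *Miat*, held 11 or more. The search read the transcript strand alone, and a match is a string of letters, not a bound site.

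*Malat1* and *Neat1* are known to end without the usual poly(A) tail, in U-rich stretches that fold on an A-rich tract before the cut that frees a tRNA-like RNA. Their 3′ ends are shown for that likeness, from GENCODE M21 transcripts Malat1-201 (chr19:5795942-5796079) and Neat1-201 (chr19:5824708-5824827), minus strand, with TTTTTCTT and GCAAA in capitals where they were found.
Malat1: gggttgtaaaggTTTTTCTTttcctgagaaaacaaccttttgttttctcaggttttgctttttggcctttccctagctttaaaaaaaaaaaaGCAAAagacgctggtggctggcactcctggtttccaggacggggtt
Neat1: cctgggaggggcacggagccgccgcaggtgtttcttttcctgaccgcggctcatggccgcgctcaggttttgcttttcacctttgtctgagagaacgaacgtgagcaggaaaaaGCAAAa
Both motifs stood in the last 500 bases of 2173 of 111422 annotated transcripts of at least that length (1.95%), on the transcript strand. The libraries were made from total RNA, so a transcript without a tail was not removed by selection for one.

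The *Mirg* locus spans 26 mature microRNAs in RefSeq (GRCm38.p6), *Rian* 6 and *Meg3* 3, all on the plus strand of chromosome 12. They are shown because the host transcripts counted here are read from the same loci. Short mature microRNAs are not measured by these libraries. Of the *Mirg* microRNAs, the pair mmu-miR-453 (chr12:109735669-109735692) and mmu-miR-496a-5p (chr12:109739132-109739152) shares a seed, and the other 24 each have their own. Bases 2 to 8, the seed, are in capitals.
mmu-miR-453: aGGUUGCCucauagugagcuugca
mmu-miR-496a-5p: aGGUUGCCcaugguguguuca
mmu-miR-134-5p: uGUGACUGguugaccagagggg
mmu-miR-382-5p: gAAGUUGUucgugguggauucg
mmu-miR-154-3p: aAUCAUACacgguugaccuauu
mmu-miR-410-3p: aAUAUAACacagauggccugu
The 4 further sequences are well-known brain members of the cluster, among them miR-134, known to act in dendritic spines. They lie at chr12:109734145-109734166, chr12:109733781-109733802, chr12:109738474-109738495 and chr12:109743764-109743784 in the order mmu-miR-134-5p, mmu-miR-382-5p, mmu-miR-154-3p and mmu-miR-410-3p.

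Abundance differed widely among the 7 genes, and only *Malat1* and *Snhg11* were abundant in these libraries. Levels are given in CPM, a gene's counts per 1000000 gene counts of the library, scaled by the trimmed mean of M-values (TMM). *Malat1* averaged 1538 CPM and *Snhg11* averaged 1182 CPM, which ranked them 21st and 36th of the 14979 genes that passed the filter of more than 1 CPM in at least 2 libraries. *Mirg* (34.1 CPM, rank 4084), *Meg3* (33.2 CPM, rank 4160), *Neat1* (31.2 CPM, rank 4347) and *Miat* (19.2 CPM, rank 5961) lay at intermediate ranks. Genes are compared in level per kilobase of annotated exon, where the mean levels were 220 CPM per kb for *Malat1*, 139 for *Snhg11*, 4.67 for *Mirg*, 2.07 for *Miat*, 1.83 for *Meg3* and 1.5 for *Neat1*. Together the 7 genes took 0.171% to 0.379% of each library's gene counts.

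*Rian* was hardly counted. It had 0 counts in 13 libraries and 1 to 3 counts in the other 15, 20 counts in all, so 6 of the 7 genes passed the filter and no difference is given for *Rian*. Its 18 listed overlapping genes were also at 0 in every library, and a read on exons of *Rian* and another gene is left out of the counts of both. In M21 these genes share 583 exonic bases (3.2%) with *Rian*. The gene models against which the authors counted are not used here, and their *Rian* exons may differ from the 18234 bases annotated in M21. For *Meg3*, 1228 exonic bases are shared with the antisense gene *Gm26906*, and for *Miat* 2260 bases, 24.3% of its exons, are shared with the antisense gene *Gm26953*. Both antisense genes were at 0 in all libraries, and whether counting used the strand is not given in the sources used here. A read in a shared stretch is left out by a counter that does not use strand, so *Meg3* and *Miat* levels are uncertain to that extent.

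The counting error set by depth differed with abundance. At the lowest and highest count of a library it was 1.65% and 0.906% for *Malat1* and 1.93% and 1.16% for *Snhg11*. It was 24.3% and 6.47% for *Miat*, and between 11.8% and 6.17% for *Meg3*, *Mirg* and *Neat1*. Small differences in the last 4 genes between single libraries are therefore not detectable at this depth.

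The dissected region set most of the *Miat* level, while *Snhg11* passed in none of the 6 pairs of regions with TMM scaling. The coefficient of variation over all 28 libraries was 76.6% for *Miat*, 40.3% for *Malat1*, 34.6% for *Meg3*, 30.5% for *Neat1*, 25.3% for *Mirg* and 18.3% for *Snhg11*. Regions were compared as means of the 3 genotypes with edgeR's likelihood ratio test and Benjamini-Hochberg adjustment over all genes, as were all adjusted p-values below. In bulk tissue, fewer cells of a type and less RNA per cell cannot be told apart. Of all genes tested, 29.0% passed between dorsal and ventral striatum, 43.4% between dorsal striatum and motor cortex, 56.1% between dorsal striatum and hypothalamus, 43.7% between ventral striatum and motor cortex, 43.6% between ventral striatum and hypothalamus, and 48.2% between motor cortex and hypothalamus. In the same order, 3, 4, 3, 3, 5 and 3 of the 6 long noncoding RNAs passed, so that their share as a group was near or somewhat above the background.

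**Figure D1:**
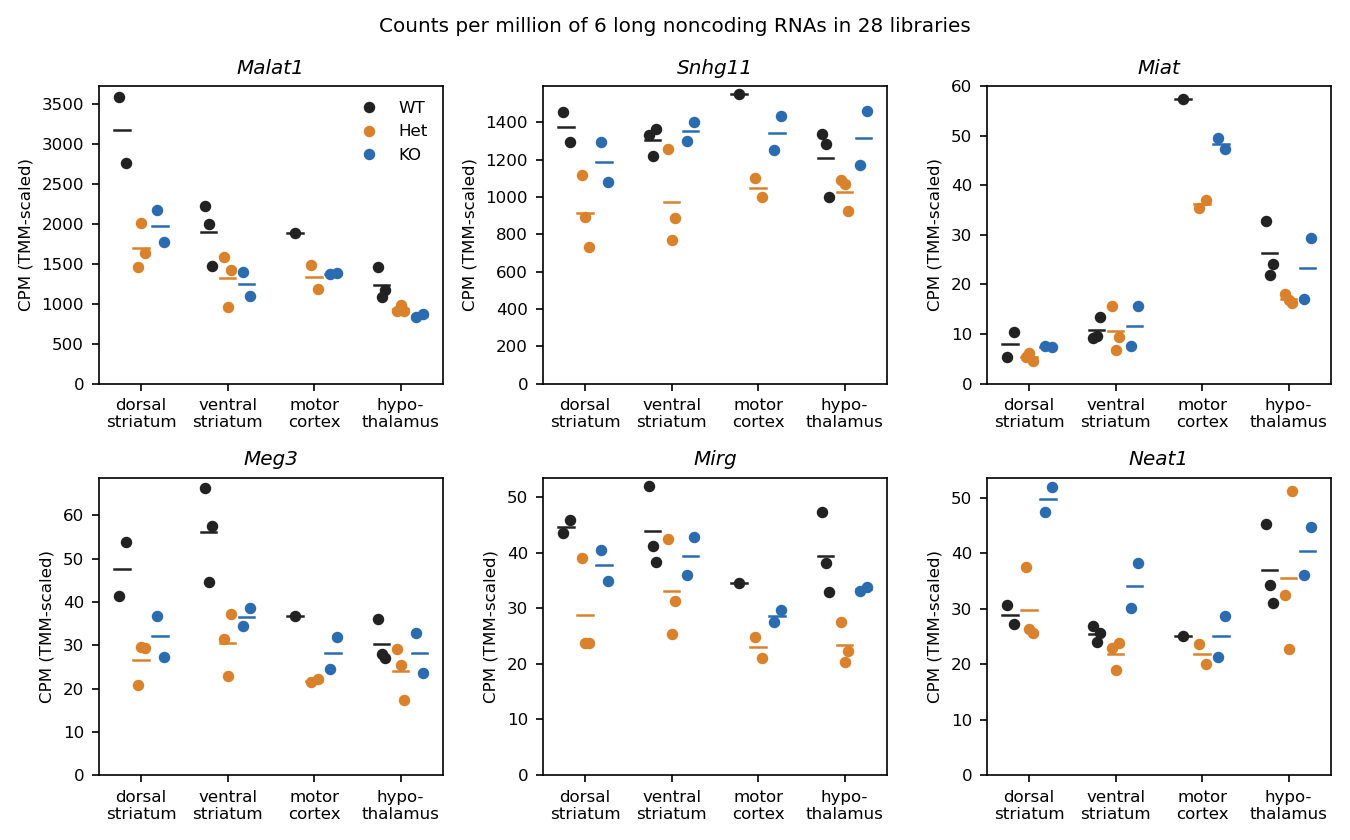
CPM (TMM-scaled counts, linear axis from 0) of 6 of the 7 genes in each of the 28 libraries, by region and genotype (black WT, orange Het, blue KO; points are libraries, bars are group means). *Miat* ranges from 4.63 CPM in a dorsal striatum library to 57.4 CPM in motor cortex, while *Snhg11* lies between 730.0 and 1554 CPM in every region.

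*Miat* was highest in motor cortex. There the WT library had 57.4 CPM, the Het libraries 35.5 and 37.1 CPM and the KO libraries 49.5 and 47.3 CPM. In hypothalamus the 8 libraries ran from 16.2 to 32.7 CPM with a median of 20.0 CPM. All motor cortex libraries thus lay above all hypothalamic ones.

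The striatal libraries were lower again for *Miat*. The 8 of ventral striatum ran from 6.81 to 15.7 CPM (median 9.52 CPM), and the 7 of dorsal striatum from 4.63 to 10.4 CPM (median 6.13 CPM). The highest ventral library lay below the lowest hypothalamic one, while the ranges of both striatal regions overlapped. All 6 pairs of regions passed the test. The smallest difference, dorsal minus ventral striatum, was -0.68 on the log2 scale (SE 0.19, adjusted p = 0.00139), and the largest, dorsal striatum minus motor cortex, was -2.75 (SE 0.19, adjusted p = 5.14e-47). Motor cortex exceeded hypothalamus by 1.09 on the log2 scale (SE 0.16, adjusted p = 1.97e-10).

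Of the 3 tested genes for splicing factors that bind *Miat*, *Celf2* was higher in dorsal striatum than in hypothalamus (log2 difference 1.5), where *Miat* was lower. *Celf2* was also higher in motor cortex than in hypothalamus (1.23), as *Miat* was (1.09). *Celf3* was higher in dorsal striatum than in hypothalamus (1.18) and in motor cortex (0.88), and *Miat* was lower in both contrasts. In each of these contrasts 2 of the 3 genes were called higher and 0 lower. *Sez6l*, a coding gene near *Miat*, was lower in dorsal striatum than in motor cortex by a log2 difference of -2.82 and lower than in hypothalamus by -2.84. The 6 tested neighbours of *Miat* did not follow it as a list: between dorsal striatum and hypothalamus 3 were higher and 1 lower (median 0.53), and between dorsal striatum and motor cortex 0 were higher and 2 lower (median 0.14).

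*Malat1* had its highest libraries in dorsal striatum. The WT libraries there had 3587 and 2761 CPM, the Het libraries 1455, 2009 and 1640 CPM and the KO libraries 2177 and 1768 CPM. The first WT library carried the lowest TMM factor of all, 0.734, and scaled by gene counts alone its *Malat1* level was 2630 CPM, still the highest in the series beside 2365 CPM in the second. The 8 hypothalamic libraries had 829.2 to 1460 CPM with a median of 943 CPM, so the regions overlapped by 1 Het library of dorsal striatum and 1 WT library of hypothalamus.

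Ventral striatum held 960 to 2221 CPM of *Malat1* (median 1443) and motor cortex 1189 to 1880 CPM (median 1380). These intermediate regions did not differ beyond their spread (log2 difference -0.05, adjusted p = 0.787). Dorsal striatum was higher than hypothalamus by 1.15 on the log2 scale (SE 0.11, adjusted p = 1.9e-23), higher than ventral striatum by 0.59 (adjusted p = 1.35e-06) and higher than motor cortex by 0.54 (adjusted p = 0.000171). Hypothalamus was also lower than ventral striatum and motor cortex, by log2 differences of 0.56 and 0.61 (adjusted p = 1.74e-06 and 4.28e-06).

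*Neat1*, the neighbour of *Malat1*, had another order of regions. Its 8 hypothalamic libraries ran from 22.7 to 51.3 CPM (median 35.1 CPM), and those of dorsal striatum from 25.6 to 52.0 CPM (median 30.6 CPM). Ventral striatum ran from 18.9 to 38.2 CPM (median 24.8 CPM) and motor cortex from 20.1 to 28.7 CPM (median 23.7 CPM). The regions overlapped throughout, but dorsal striatum passed the test against ventral striatum (log2 difference 0.39, adjusted p = 0.0211) and motor cortex (0.55, adjusted p = 0.00277). Ventral striatum and motor cortex were lower than hypothalamus by log2 differences of -0.49 and -0.65 (adjusted p = 0.000924 and 0.000177). Dorsal striatum and hypothalamus did not pass against each other with TMM scaling (-0.10), but *Neat1* was called lower in dorsal striatum when scaled by all tallied reads (-0.56, adjusted p = 5.13e-05) or gene counts alone (-0.46, adjusted p = 0.00211), and with the no-feature share as a covariate (-0.34, adjusted p = 0.0489). Ventral striatum and motor cortex did not pass (0.16).

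Genes of oligodendrocytes, the myelin-forming cells, also varied by region. All 10 on the list were higher in dorsal striatum than in motor cortex, with a median log2 difference of 0.87, all 10 were higher in ventral striatum than in motor cortex (median 1.02), and all 10 were lower in motor cortex than in hypothalamus (median -0.88). Their summed level was 1646 to 2490 CPM in the 5 motor cortex libraries, 2581 to 5625 CPM in dorsal striatum, 3356 to 5211 CPM in ventral striatum and 3750 to 6341 CPM in hypothalamus, and no gene of the list was at 0. The median of this sum was 2192 CPM in motor cortex, 3874 in dorsal striatum, 4665 in ventral striatum and 4676 in hypothalamus. The *Neat1* medians in the same order were 23.7, 30.6, 24.8 and 35.1 CPM. The part of the oligodendrocyte genes in the *Neat1* differences was not tested.

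Since *Neat1* and *Malat1* are counted in the same library, their ratio does not depend on how libraries are scaled. The ratio of *Neat1* to *Malat1* counts had a median of 0.0336 in hypothalamus (0.0232 to 0.0568, n = 8), 0.0156 in dorsal striatum, 0.0171 in ventral striatum and 0.0159 in motor cortex. Exact two-sided permutation tests of the mean log2 ratio over libraries, adjusted over 12 ratio tests, gave 3 differences past 0.05: dorsal striatum minus hypothalamus was -1.15 (p = 0.00186), ventral striatum minus hypothalamus was -1.03 (p = 0.0014) and motor cortex minus hypothalamus was -1.14 (p = 0.000777), each with adjusted p = 0.00744. Flipping signs within replicate numbers gave these 3 differences the smallest p that 7, 8 and 5 pairs allow (0.0156, 0.00781 and 0.0625), so that this test could not have called motor cortex minus hypothalamus.

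**Figure D2:**
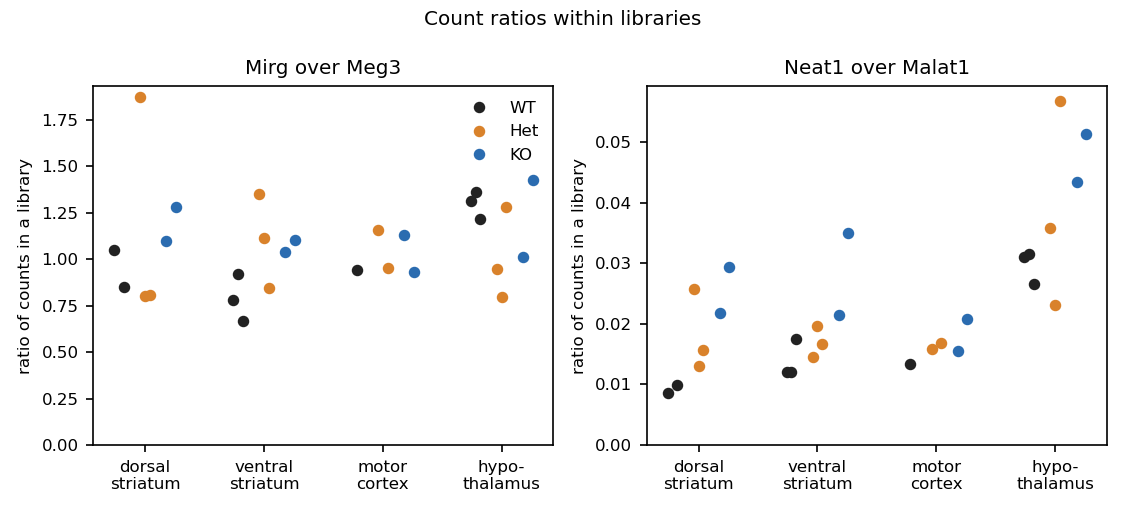
Ratio of *Mirg* to *Meg3* counts (left) and of *Neat1* to *Malat1* counts (right) in each of the 28 libraries by region (black WT, orange Het, blue KO; linear axes from 0). The right panel shows hypothalamic libraries from 0.0232 to 0.0568 beside medians of 0.0156 to 0.0171 elsewhere. The left panel shows libraries from 0.665 to 1.87, with medians of 0.95 to 1.25 in the 4 regions.

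*Meg3* was highest in ventral striatum, where the WT libraries had 66.3, 44.7 and 57.5 CPM, the Het libraries 31.5, 22.8 and 37.1 CPM and the KO libraries 34.5 and 38.7 CPM. The dorsal striatum ran from 20.8 to 54.0 CPM (median 29.7 CPM), motor cortex from 21.5 to 36.8 CPM (median 24.4 CPM) and hypothalamus from 17.3 to 36.0 CPM (median 27.5 CPM). All 4 ranges overlapped. Ventral striatum passed the test against motor cortex (log2 difference 0.49, adjusted p = 0.00351) and hypothalamus (0.54, adjusted p = 9.83e-05), and dorsal striatum against hypothalamus (0.33, adjusted p = 0.0232). This last difference turned to -0.04 when libraries were scaled by gene counts alone.

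*Mirg* ran from 25.4 to 51.9 CPM in ventral striatum, 23.7 to 45.8 CPM in dorsal striatum, 21.1 to 34.6 CPM in motor cortex and 20.3 to 47.3 CPM in hypothalamus. Motor cortex was lower than dorsal striatum (log2 difference 0.37, adjusted p = 0.0272) and ventral striatum (0.44, adjusted p = 0.00525), and ventral striatum was higher than hypothalamus (0.30, adjusted p = 0.0277), a difference that was -0.02 when libraries were scaled by all reads tallied. The ratio of *Mirg* to *Meg3* counts had medians of 1.05, 0.981, 0.954 and 1.25 in dorsal striatum, ventral striatum, motor cortex and hypothalamus. None of the 6 pairs of regions passed the exact permutation test (adjusted p from 0.333 to 0.886).

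*Snhg11* had 730.0 to 1454 CPM in dorsal striatum, 771 to 1404 CPM in ventral striatum, 1000 to 1554 CPM in motor cortex and 923 to 1463 CPM in hypothalamus. Its 6 differences between regions lay between -0.19 and 0.14 on the log2 scale, with adjusted p from 0.208 to 0.877. Other scalings changed this: dorsal striatum minus hypothalamus became -0.51 when scaled by all tallied reads (adjusted p = 1.73e-05) and -0.41 by gene counts alone (adjusted p = 0.000664), where the median of all genes moved by -0.46 and -0.36. *Snhg11* was also called lower in dorsal striatum than in motor cortex under both scalings (-0.40 and -0.31) and with a replicate block (-0.25, adjusted p = 0.0406), and lower in ventral striatum than in hypothalamus when scaled by all tallied reads (-0.29). Coding genes beside it behaved otherwise: *Ppp1r16b* was higher in dorsal striatum than in hypothalamus by 2.39 on the log2 scale and *Slc32a1*, the vesicular GABA transporter, by 0.98.

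**Figure D3:**
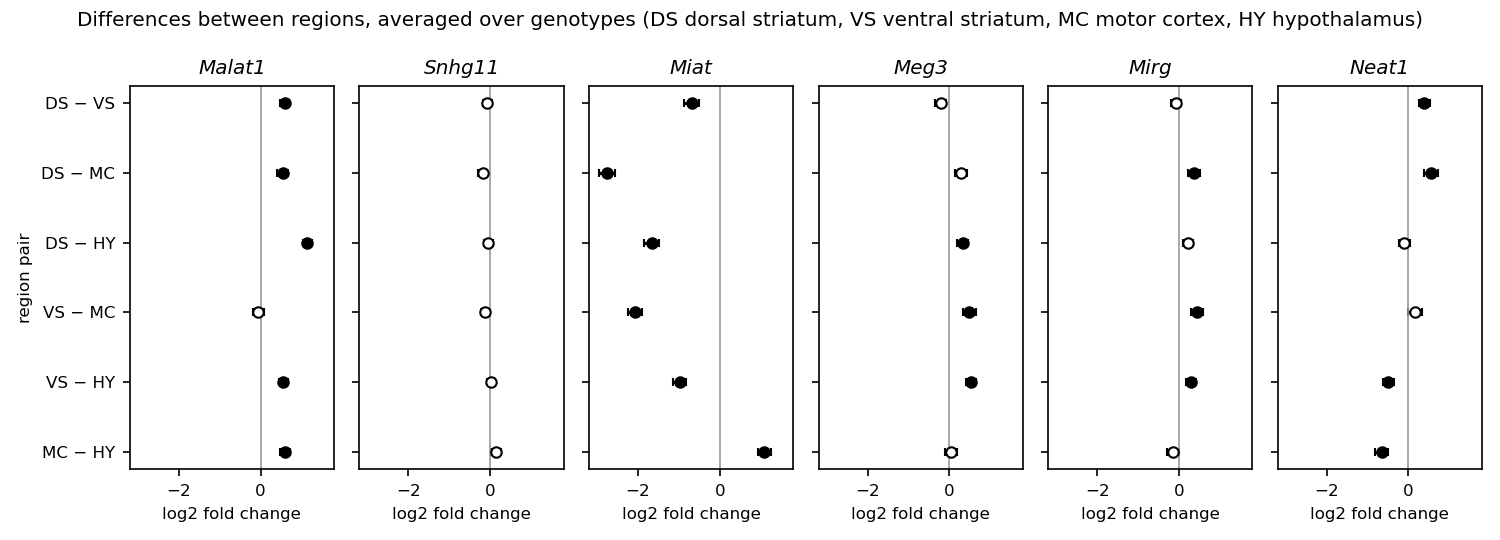
Log2 differences between regions for 6 long noncoding RNAs (points; error bars are approximate SE; filled points have an adjusted p under 0.05). *Miat* passes in all 6 pairs, from -2.75 to 1.09, and *Snhg11* in none.

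Lists of related genes are described beside these differences by counts alone. Of 20 paraspeckle protein genes, 8 were higher and 2 lower in dorsal striatum than in motor cortex, 7 were higher and 3 lower than in hypothalamus, and 3 were higher and 4 lower in motor cortex than in hypothalamus. Of 22 nuclear speckle genes, 10 were higher and 0 lower in dorsal striatum than in motor cortex, 7 were higher and 0 lower than in hypothalamus, and 1 was higher and 5 lower in motor cortex than in hypothalamus. These totals lie near or below the 43.4%, 56.1% and 48.2% of all genes called in the same contrasts. Of 20 other long noncoding RNAs that passed the filter, 9 were higher and 6 lower in dorsal striatum than in hypothalamus.

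Between KO and WT, none of the 6 long noncoding RNAs passed the test within a region, while several lay lower in the libraries labelled KO. In dorsal striatum 0.387% of all genes passed, in ventral striatum 0.0801%, in motor cortex 0.0334% and in hypothalamus 0.167%. The members passing were 0 of 6 in each by edgeR's likelihood ratio test, its quasi-likelihood test and DESeq2, and 3, 2, 0 and 1 of 6 had an unadjusted p under 0.05 in the same order of regions. *Malat1* had log2 differences of -0.69, -0.61, -0.45 and -0.54 in dorsal striatum, ventral striatum, motor cortex and hypothalamus (adjusted p = 0.137, 0.455, 1 and 0.493). *Meg3* had -0.57, -0.62, -0.39 and -0.10.

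*Neat1* had the opposite sign in dorsal striatum. The KO libraries held 47.4 and 52.0 CPM, the WT libraries 30.6 and 27.2 CPM and the Het libraries 37.5, 26.2 and 25.6 CPM. The KO minus WT difference was 0.78 on the log2 scale (SE 0.26, adjusted p = 0.2). It was called when libraries were scaled by all tallied reads (0.95, adjusted p = 0.0256) or by gene counts alone (1.07, adjusted p = 0.00738). In the same contrast 3 of 10 oligodendrocyte genes were called higher, with a list median of 0.72, and the no-feature share was 14.8% and 16.1% in the KO libraries against 10.8% and 11.8% in WT. With the no-feature share as a covariate the *Neat1* difference was 0.45 (adjusted p = 0.925). The part of the oligodendrocyte genes was not tested. Choroid plexus genes were also called higher in this contrast (7 of 8). The part of the choroid plexus genes was not tested either.

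The KO minus WT difference was compared between regions by interaction terms. For dorsal minus ventral striatum 0.00668% of all genes passed, for dorsal striatum minus hypothalamus 0.154% and for ventral striatum minus hypothalamus 0.1%. None of the 6 long noncoding RNAs passed any of the 3 by edgeR's likelihood ratio or quasi-likelihood test or DESeq2 (which gave 1 member no adjusted p between dorsal striatum and hypothalamus), and 0 had an unadjusted p under 0.05. The *Neat1* interaction between dorsal striatum and hypothalamus was 0.65 (SE 0.35, adjusted p = 0.747).

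Between Het and WT, *Malat1* fell in dorsal striatum and *Meg3* in ventral striatum. Of all genes, 0.0868% passed in dorsal striatum, 0.0534% in ventral striatum, 0.0134% in motor cortex and 0.0935% in hypothalamus, and the members passing were 1, 1, 0 and 0 of 6. The *Malat1* difference in dorsal striatum was -0.90 on the log2 scale (SE 0.19, adjusted p = 0.00941). The 3 Het libraries had 1455, 2009 and 1640 CPM, against 3587 and 2761 CPM in WT. The *Meg3* difference in ventral striatum was -0.88 (SE 0.20, adjusted p = 0.0284). Its Het libraries had 31.5, 22.8 and 37.1 CPM, against 66.3, 44.7 and 57.5 CPM in WT. With edgeR's quasi-likelihood test neither was called, and DESeq2 called *Malat1* alone. With the no-feature share as a covariate *Malat1* was at -0.79 (adjusted p = 0.106) and *Meg3* at -0.84 (adjusted p = 0.0661), and *Meg3* was not called under either other scaling (adjusted p = 0.0903 and 0.23). *Malat1* was not called without any 1 of 3 libraries (Het replicates 4 and 6 and WT replicate 1 of dorsal striatum), and *Meg3* without any 1 of 4 (Het replicates 4 and 5 and WT replicates 1 and 3 of ventral striatum).

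Other cell type lists moved in the same contrasts. In dorsal striatum 7 of 10 oligodendrocyte genes (median log2 difference 0.49), 5 of 10 cortical excitatory genes (median -1.03) and 3 of 8 choroid plexus genes (median 2.67) had an unadjusted p under 0.05 between Het and WT, and 0 of each were called by edgeR's likelihood ratio test. In ventral striatum 1 of 12 hypothalamic genes was called higher and 4 had an unadjusted p under 0.05. Their part in the *Malat1* and *Meg3* differences was not tested.

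*Mirg* came next in hypothalamus, where the Het libraries had 27.6, 20.3 and 22.2 CPM and the WT libraries 47.3, 38.0 and 33.0 CPM. The difference was -0.75 on the log2 scale (SE 0.19, adjusted p = 0.0604). The quasi-likelihood test and DESeq2 also called 0 members in motor cortex and hypothalamus, but in hypothalamus DESeq2 gave 4 of the 6 no adjusted p. In the main test 4 and 3 of 6 had an unadjusted p under 0.05. The median log2 difference of the 6 genes was -0.61 in dorsal striatum, -0.41 in ventral striatum, -0.58 in motor cortex and -0.37 in hypothalamus, beside medians of 0.002 to 0.013 over all genes tested.

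Since the Het minus WT differences had the same sign in most regions, the genotype differences were also averaged over the 4 regions, a contrast chosen after the values by region were seen. It uses all 28 libraries as if independent. Of all genes, 0.361% passed between Het and WT, and *Meg3*, *Malat1*, *Mirg* and *Snhg11* were 4 of them, all lower in Het. *Meg3* differed by -0.70 on the log2 scale (SE 0.12, adjusted p = 7.15e-06), *Malat1* by -0.58 (SE 0.10, adjusted p = 1.36e-05), *Mirg* by -0.59 (SE 0.11, adjusted p = 0.000212) and *Snhg11* by -0.45 (SE 0.09, adjusted p = 0.00144). *Miat* (-0.47, adjusted p = 0.201) and *Neat1* (-0.10, adjusted p = 0.909) did not pass.

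The same values are given here by library. Below the lowest WT library of their own region lay 10 of 11 Het libraries for *Malat1*, for *Meg3* and for *Mirg*, and 8 of 11 for *Snhg11*, *Neat1* and *Miat*. This count was not taken over all genes, so it lends no weight to the calls. *Neat1* and *Miat*, which did not pass, had the same count as *Snhg11*, which did. For *Snhg11* the WT libraries had 1454 and 1294 CPM in dorsal striatum, 1335, 1218 and 1365 CPM in ventral striatum, 1554 CPM in motor cortex, and 1340, 1284 and 1000 CPM in hypothalamus. The Het libraries had 1118, 895 and 730.0 CPM, 1255, 771 and 888 CPM, 1100 and 1000 CPM, and 1090, 1069 and 923 CPM in the same order of regions. Het and WT *Snhg11* values overlapped in ventral striatum and hypothalamus. Each of the 4 genes passed in 33 of 33 alternative analyses, which included leaving out single libraries, other scalings, the quasi-likelihood test, DESeq2 and the no-feature share as a covariate. None of these left out all libraries of a replicate number. They therefore do not show whether the calls would hold if libraries of different regions share mice. Motor cortex rests on a single WT library.

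For KO minus WT over the 4 regions 0.3% of all genes passed and 1 of the 6 members, *Malat1*, at -0.57 on the log2 scale (SE 0.11, adjusted p = 0.000157). All 8 KO libraries lay below the lowest WT library of their region for *Malat1*. That count, too, was not taken over all genes and lends no weight to the call. The call held in 33 of 33 alternatives, with the same limit on libraries that may share mice. *Meg3* (-0.42, adjusted p = 0.136), *Mirg* (-0.23), *Miat* (-0.11), *Snhg11* (-0.06) and *Neat1* (0.33, adjusted p = 0.384) did not pass. The contrast shares its WT libraries with Het minus WT.

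Between KO and Het 0.461% of all genes passed in dorsal striatum, 0.0467% in ventral striatum, 0.00668% in motor cortex and 0.234% in hypothalamus. None of the 6 members passed in a region by edgeR's likelihood ratio or quasi-likelihood test or DESeq2, while 2, 2, 0 and 2 had an unadjusted p under 0.05. Over the 4 regions 0.28% of all genes passed, and 1 member did: *Snhg11* was higher in KO by 0.39 on the log2 scale (SE 0.09, adjusted p = 0.0124). This call held in 29 of 34 alternatives, and the quasi-likelihood test did not make it. It was lost without Het motor cortex replicate 6, KO dorsal striatum replicate 7, KO hypothalamus replicate 8 or KO motor cortex replicate 8. *Malat1* differed by 0.01 (SE 0.10) between KO and Het.

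**Figure D4:**
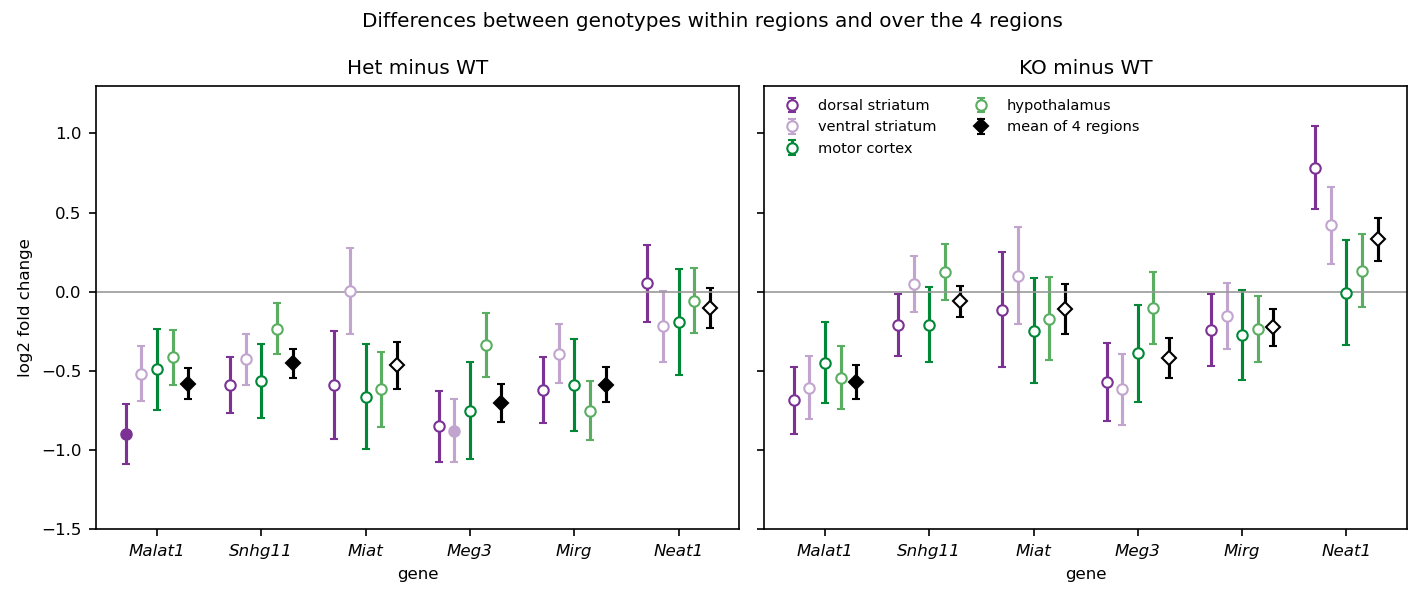
Log2 differences of Het minus WT (left) and KO minus WT (right) for 6 long noncoding RNAs in each region (circles) and averaged over the 4 regions (diamonds), with approximate SE; filled symbols have an adjusted p under 0.05. Filled diamonds are *Meg3*, *Malat1*, *Mirg* and *Snhg11* on the left, between -0.70 and -0.45, and *Malat1* on the right at -0.57.

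Genes beside the members in the genome did not pass between Het and WT over the 4 regions. Since 0.361% of all genes passed in that contrast, 0 calls in lists of this size do not set the neighbours apart from other genes. There edgeR's likelihood ratio test called 0 of 15 genes in and around the *Dlk1*-*Dio3* domain (median log2 difference -0.01, 2 at an unadjusted p under 0.05), 0 of 15 neighbours of *Malat1* and *Neat1* (0.04, 0 unadjusted), 0 of 6 neighbours of *Snhg11* (0.02, 0 unadjusted) and 0 of 6 neighbours of *Miat* (0.01, 0 unadjusted). The median of all genes was 0.01. Within dorsal striatum 1 neighbour, *Sez6l* beside *Miat*, was called higher in KO than in WT (0.87).

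Of 22 nuclear speckle genes, 3 were lower in Het, where 0.361% of all genes were called, namely *Clk1* (-0.46, adjusted p = 0.0297) and *Clk4* (-0.42, adjusted p = 0.0473), kinases of SR splicing factors, and *Luc7l3* (-0.28, adjusted p = 0.0297), a splicing factor of the U1 particle. The list median was -0.09. Of 20 paraspeckle genes 0 passed and 1 had an unadjusted p under 0.05. Of 20 other long noncoding RNAs 1 passed, *Mir124a-1hg*, a host of the neuronal microRNA miR-124, at -0.59 (SE 0.10, adjusted p = 1.36e-05) between Het and WT and at -0.50 (SE 0.11, adjusted p = 0.00474) between KO and WT. Of the 10 genes each that mark neurons, oligodendrocytes, astrocytes, microglia and endothelial cells, 0 passed between Het and WT by edgeR's likelihood ratio test, with 0, 1, 2, 1 and 2 at an unadjusted p under 0.05 and list medians from 0.03 to 0.12. Choroid plexus genes (0 of 8 passing, 3 unadjusted) had a median of 0.77 and hypothalamic genes (0 of 12, 2 unadjusted) a median of 0.72. Their part in the members' differences was not tested.

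The no-feature share, which rises with reads from introns, unannotated transcripts and genomic DNA, ran from 9.57% to 19.1% of the reads tallied. In dorsal striatum it was 10.8% and 11.8% in WT, 19.1%, 11.2% and 11.2% in Het, and 14.8% and 16.1% in KO. In ventral striatum it was 11.9%, 11.5% and 11.7% in WT, 12.2%, 11.7% and 13.9% in Het, and 10.3% and 13.5% in KO. In motor cortex it was 12.6% in WT, 10.7% and 13.4% in Het, and 12.3% and 13.9% in KO. Only dorsal striatum thus had both KO libraries above every WT library without overlap.

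Hypothalamus had the lowest shares, with 10.7%, 12.6% and 9.57% in WT, 9.82%, 10.03% and 11.4% in Het, and 9.78% and 11.2% in KO. It was lower than dorsal striatum by 2.95 percentage points (p = 0.0138), motor cortex by 1.95 points (p = 0.0132) and ventral striatum by 1.45 points (p = 0.021) in exact two-sided permutation tests, with adjusted p = 0.0414, 0.0414 and 0.042 over 6 tests. With shares of all tallied reads these calls rest on single libraries, since 0 of 6 passed when any 1 of 8 libraries was left out. As a share of uniquely aligned reads the same 3 differences were 5.02, 2.90 and 3.24 points (adjusted p = 0.0103, 0.0155 and 0.0084).

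Within regions the members were set against the no-feature share in 18 relations, for 6 genes in the 3 regions with at least 6 libraries. None passed by a permutation test of Pearson's r over libraries (smallest adjusted p = 0.882), and 0 had an unadjusted p under 0.05 by Pearson's r or Spearman's rho. The values of r ran from -0.66 for *Meg3* to 0.72 for *Neat1* (p = 0.0669 by exact permutation), both in dorsal striatum over 7 libraries. Without the 2 libraries farthest from the median share these became 0.07 and 0.91. The *Meg3* value therefore rests on those 2 libraries. Other values moved as well. In hypothalamus r went from 0.37 to 0.94 for *Snhg11* and from 0.19 to 0.71 for *Miat*. In ventral striatum it went from 0.17 to -0.57 for *Neat1*.

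**Figure D5:**
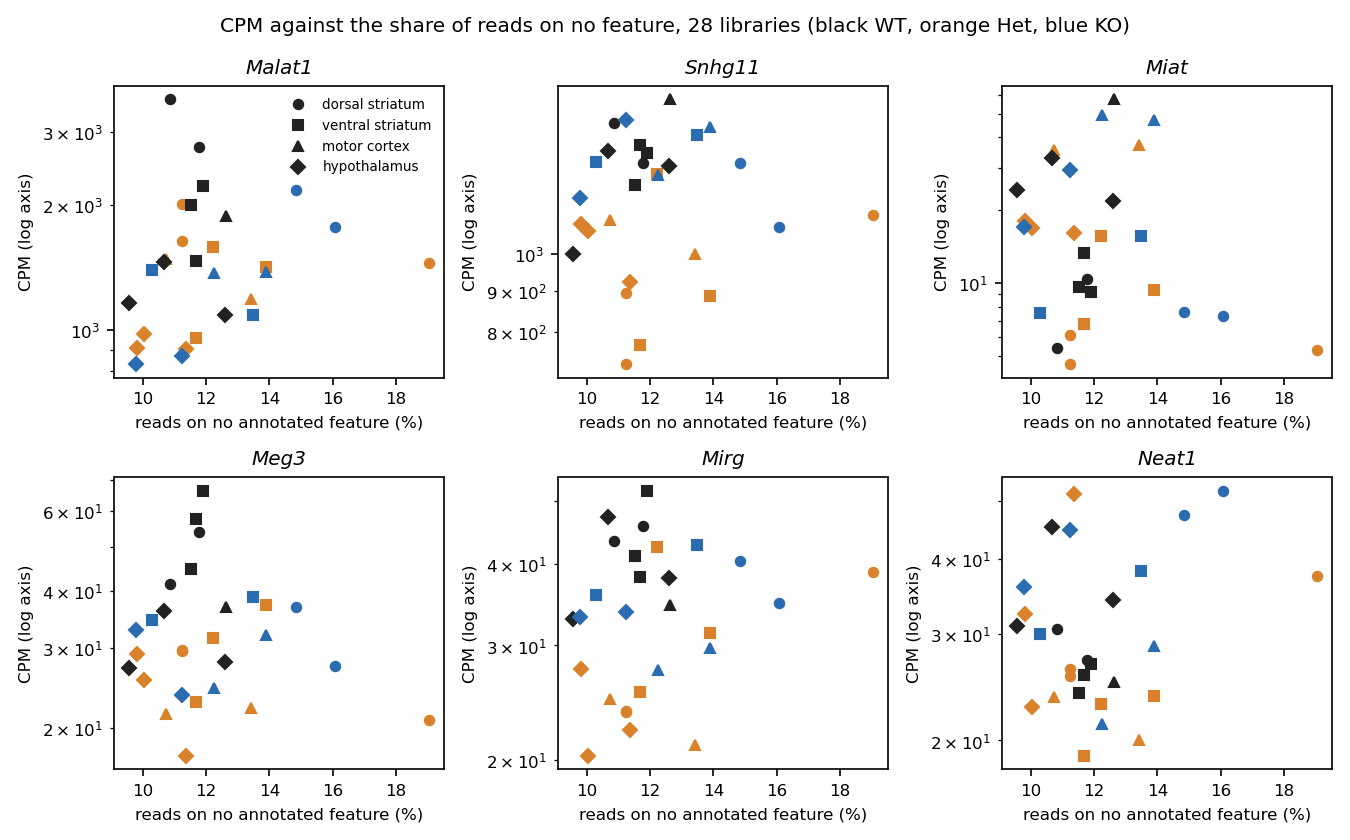
CPM (log axis) of 6 long noncoding RNAs against the percentage of reads on no annotated feature in the 28 libraries (black WT, orange Het, blue KO; symbols are regions). No gene shows a relation within a region that passes the test, and the library at 19.1% is a Het dorsal striatum.

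Genes whose levels followed the members most closely were found by Pearson's r of log2 CPM over the 28 libraries, given as a description since libraries share region and depth. *Miat* was followed by *Map3k9* (r = 0.948), *Ipo5* (0.944) and *Oxr1* (0.942), and *Malat1* by *Lsm14b* (0.865), *Sympk* (0.859) and *Kcnt1* (0.859). *Mirg* was followed by *Leng8* (0.853), *P3h3* (0.767) and *Myo9b* (0.749), *Meg3* by *Akap8l* (0.772), *Gm22357* (0.737) and *Fnbp4* (0.735), *Neat1* by *Arsg* (0.791), *Adamtsl4* (0.743) and *Bcas1* (0.716), and *Snhg11* by *Ttc14* (0.749), *Bspry* (0.746) and *Mir5125* (0.712). The likeness was thus closest for *Miat*, the gene with the widest range between regions.

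After the mean of each region and genotype was taken out, the nearest genes were *Leng8* (0.860), *Stn1* (0.839) and *Mir124a-1hg* (0.805) for *Snhg11*, and *Dvl2* (0.840), *Mir124a-1hg* (0.835) and *Cpsf1* (0.804) for *Mirg*. Among the members themselves *Mirg* and *Snhg11*, on different chromosomes, had r = 0.662 over the 28 libraries and 0.777 after centring. *Meg3* and *Mirg*, in 1 imprinted domain, had 0.706 and 0.233, and the neighbours *Malat1* and *Neat1* had -0.112 and 0.061. Library-to-library deviations of *Mirg* thus followed *Snhg11* more closely than *Meg3*, a difference that was not tested.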

How the data were processed

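RNA-seq was done on total RNA of 4 brain regions (NuGEN Ovation V2 cDNA, single-end reads). The authors trimmed reads with Trimmomatic 0.32, removed ribosomal reads with Bowtie2 2.2.3, aligned them with STAR 2.3.1z8 and SAMtools 0.1.19, and deposited raw counts per Ensembl gene from HTSeq 0.6.1p1 in union mode, with tallies of reads on no feature. A read on exons of 2 genes, or aligned to several places (25.5% to 30.2% of the reads tallied), is left out of such counts, which bears on genes with repeats or overlaps.

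Gene counts were fitted with edgeR 4.0.16 in R 4.3.3 (TMM scaling, a mean for each of 12 groups, likelihood ratio test, genes above 1 CPM in 2 libraries, Benjamini-Hochberg over all 14979 genes tested). Each SE is the log2 difference divided by the root of the likelihood ratio statistic and is approximate. The likelihood ratio test is the one the study used. Alternatives were the quasi-likelihood test, DESeq2 1.42.0, other scalings and filters, the no-feature share as a covariate, subsets of libraries, single libraries left out, and a replicate block. The same fit was also run on simulated counts with known changes, whose outcome is not given here. The labels hold 8 replicate numbers, which repeat across regions. Libraries with the same number did not deviate together (r from -0.08 to 0.086 over 34 pairs). With so few libraries in a group, this cannot show that they came from different mice. The numbers were not taken as pairs in the main fit, and no libraries were duplicates. The members and lists were chosen with earlier results of these data known. All members are given in every library. Of a list, the rule names the 3 genes with the smallest p and all that passed where 5 or fewer did, and genes named beyond it (*Celf2*, *Celf3*, *Sez6l*, *Ppp1r16b*, *Slc32a1*) were chosen after their values were seen. Likeness was the largest positive r over all genes tested. Transcript sequences are from GENCODE M21 and microRNAs from RefSeq (GRCm38.p6).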

Additional observations from a re-analysis of the deposited data

How the results depend on the processing

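Each count of members called is given here where an alternative moved it by more than 1.5 times, and in each case the cause was not tested beyond what fewer libraries explain. With libraries of a single genotype, the calls between dorsal striatum and motor cortex fell from 4 to 1 (Het), 2 (KO) and 2 (WT), those between the striatal regions from 3 to 1 in each genotype, those between ventral striatum and motor cortex from 3 to 1 in each, and those between ventral striatum and hypothalamus from 5 to 1 in KO. Scaling by all tallied reads gave 3 in the last contrast. For Het minus WT in dorsal striatum, 1 call became 0 with the quasi-likelihood test or the no-feature covariate and 2 with the libraries of that region alone. In ventral striatum it became 0 with the quasi-likelihood test, DESeq2, the covariate, and scaling by all tallied reads or by gene counts alone. In hypothalamus 0 became 1 with no filter on low counts, the covariate, the region's own libraries or scaling by all tallied reads, and in motor cortex 0 became 2 with that region's libraries alone. With the region's libraries alone, KO minus Het had 1 call in dorsal striatum and 1 in motor cortex and KO minus WT 1 in motor cortex, and KO minus WT in dorsal striatum had 1, *Neat1*, under both other scalings. For KO minus Het over the 4 regions the quasi-likelihood test gave 0 and both other scalings 2.

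The sign of *Meg3* between dorsal striatum and hypothalamus turned to -0.139 when scaled by all tallied reads and to -0.039 by gene counts alone, and that of *Mirg* between ventral striatum and hypothalamus to -0.017 by all tallied reads. These scalings moved the median of all genes in dorsal striatum minus hypothalamus by -0.46 and -0.36.

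Leaving out single libraries gave 0 to 2 calls for Het minus WT in dorsal striatum, 0 to 1 in ventral striatum and 0 to 1 in hypothalamus, 0 to 1 for KO minus Het in dorsal striatum, 0 to 3 for KO minus Het and 1 to 2 for KO minus WT over the 4 regions, and 0 to 3 for the no-feature share. For KO minus Het over the 4 regions the count was 0 without Het motor cortex replicate 6, KO dorsal striatum replicate 7, KO hypothalamus replicate 8 or KO motor cortex replicate 8, and 3 without Het dorsal striatum replicate 4. For KO minus WT over the 4 regions it was 2 without KO hypothalamus replicate 7. Without the WT motor cortex library, contrasts that need it could not be computed. Genotypes share no replicate number, so only regions could be blocked. With a replicate block, no count between regions moved by more than 1.5 times, but the ratio tests with sign flips within replicate numbers gave 0 calls in place of 3, which says nothing of stability, since the 3 differences had the smallest p their 5 to 8 pairs allow (0.00781 to 0.0625). At its lowest count the counting error of *Miat* was 24.3%, and why *Rian* was hardly counted was not tested.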
